A study of Mus musculus with 2 samples.

Results

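The miRNAs described here are 10 hairpins of the imprinted Dlk1-Dio3 region on mouse chromosome 12: Mir431, Mir433, Mir127, Mir434, Mir136, Mir379, Mir411, Mir541, Mir409 and Mir410. They were taken by name as members of the imprinted clusters, out of 2202 miRNA hairpins annotated in GENCODE M21, by a rule without a threshold on these reads, though the choice was made with earlier results of these data known. A read was counted for a hairpin when it was 19 to 25 nt long and matched it exactly in the sense direction. The series sequenced small RNA from testes of mutant mice at 23 days postpartum (dpp), an age when spermatogenesis has reached meiosis and the first round spermatids. The labels give 1 Stambp-ps1-/- sample and 1 Stambp-ps1+/- sample, both on the C57BL/6 background, with no wild type. They do not state how the allele was made or how many animals gave RNA to a library. The record lists both tables of read sequences under the Stambp-ps1-/- sample, so the tables are called KO-named and het-named after the words in their names and neither was placed in a genotype.

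An imprinted gene is expressed from the copy inherited from 1 parent. In the Dlk1-Dio3 region the protein genes Dlk1, Rtl1 and Dio3 are expressed from the paternal chromosome, whereas the noncoding RNAs Meg3, Rtl1 antisense, Rian and Mirg, and the miRNAs cut from them, come from the maternal one. The miRNAs are known from embryo, placenta and brain, and those antisense to Rtl1 match its mRNA perfectly and can direct its cleavage. A miRNA is cut from its hairpin as a 5p and a 3p strand. Its seed, bases 2 to 8 from the 5′ end, does most of the target pairing, so a start moved by 1 base gives another seed, and bases added to the 3′ end (a tail) leave the seed as it was.

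All 10 hairpins lie on the plus strand of chromosome 12 (GRCm38), in 2 stretches. Mir431 (109590447 to 109590537), Mir433 (109591715 to 109591838), Mir127 (109592846 to 109592915), Mir434 (109594506 to 109594599) and Mir136 (109595327 to 109595388) lie opposite an exon of Rtl1, which is on the minus strand. The other 5 lie further along, beside or inside Mirg, in what is known as the miR-379/miR-410 cluster. Mir379 (109709060 to 109709125) and Mir411 (109710175 to 109710256) overlap no other annotated gene. Mir541 (109742409 to 109742498) and Mir409 (109743158 to 109743236) are in introns of Mirg, and Mir410 (109743715 to 109743795) is in an exon of it. Mir136 overlaps Mir3071 and Mir409 overlaps Gm24321, both on the minus strand. The libraries are labelled directional, and no read of 18 to 32 nt was antisense to any of the 10 hairpins. Taking 3 reads as the most that a count of 0 allows, this leaves up to 0.0552 RPM (reads per 1000000 reads of the table) for each in the KO-named table and 0.0478 RPM in the het-named one.

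The mature sequences below are from RefSeq (GRCm38.p6), 5′ to 3′, with the seed in capitals. All 10 hairpins matched, with 20 mature strands. One strand is shown for each hairpin, the strand with most reads, because these strands carry the abundance results.
miR-431-5p: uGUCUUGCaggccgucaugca
miR-433-3p: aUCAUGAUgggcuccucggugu
miR-127-3p: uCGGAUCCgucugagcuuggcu
miR-434-3p: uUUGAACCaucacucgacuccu
miR-136-3p: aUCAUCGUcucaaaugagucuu
miR-379-5p: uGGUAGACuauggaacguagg
miR-411-5p: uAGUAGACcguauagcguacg
miR-541-5p: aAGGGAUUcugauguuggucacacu
miR-409-3p: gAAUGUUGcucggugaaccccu
miR-410-3p: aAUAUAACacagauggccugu
The 20 strands hold 19 distinct seeds. The shared seed among them is that of miR-379-3p and miR-411-3p, while the seeds of miR-379-5p and miR-411-5p differ by 1 base. Outside the 10 hairpins, RefSeq gives the seed of miR-379-5p also to miR-1193-5p, that of miR-411-5p to miR-7229-5p, that of miR-410-5p to miR-494-5p, and that of miR-410-3p to miR-344d-3p and miR-344e-3p.

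The tables hold 54384974 reads (KO-named) and 62773871 reads (het-named). The share of reads of 18 to 20 nt was 4.08% of the KO-named table against 7.83% of the het-named one, and those of 24 to 32 nt, the piRNA range, 79.4% of the KO-named table and 74.9% of the het-named one. Of the miRNAs known from particular cell types, the sets of germ cells and of somatic testis cells had the highest summed levels. The germ cell miRNA Mir34c had 5482 RPM in the KO-named table against 3963 RPM in the het-named one. Mir143 of somatic cells had 8201 RPM (KO-named) and 7059 RPM (het-named). The endothelial miRNA Mir126a had 408 RPM (KO-named) and 340 RPM (het-named), a log2 ratio of 0.26. In both tables it was more abundant than Mir202 and Mir145a of somatic testis cells. The 7 germ cell miRNAs had log2 ratios of -0.07 (Mir871, with 7619 RPM KO-named and 8010 RPM het-named) to 0.83, and the 4 of somatic testis cells -0.04 (Mir202) to 0.39. All 4 blood miRNAs were higher in the KO-named table, as were 80.7% of the 259 measured hairpins named Mir. The 4 summed to 65.5 RPM in the KO-named table against 44.0 RPM in the het-named one. Mir142 alone had 55.1 RPM (KO-named) and 38.5 RPM (het-named). The log2 ratios of the 4 were 0.52 (Mir142) to 1.05 (Mir144). The measured hairpins named Mir had a median of 0.29 and an upper 5% point of 0.65. Mir451a and Mir223, at 0.91 each, lay past that point, and Mir142 did not. Mir144 had 99 KO-named and 55 het-named reads, together under the 200 reads required of a measured hairpin. Of the nervous tissue miRNAs, Mir9-2 had 9.11 RPM (KO-named) and 6.63 RPM (het-named) and Mir124a-1 0.165 RPM (KO-named) and 0.234 RPM (het-named). The muscle miRNAs Mir133a-1 and Mir1a-1 summed to 10.8 RPM (KO-named) and 6.54 RPM (het-named), and the liver miRNA Mir122 had 0 reads in both. The part of these cell types in the results below was not tested, and in a whole tissue fewer cells of a type and less RNA per cell cannot be told apart. There was 1 library per table, so no test between groups was possible. Intervals are exact 95% Clopper-Pearson intervals for shares and conditional binomial intervals for ratios, and they hold counting error alone: reads copied by PCR and not tagged by molecule are no independent draws.

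Every one of the 10 hairpins had reads in both tables. Together they held 1492 RPM in the KO-named table against 1503 RPM in the het-named one, a log2 ratio of -0.01 (-0.02 to 0.00). This was 1.21% of the KO-named against 1.45% of the het-named reads on all miRNA hairpins. Mir127 and Mir411 supplied 78.2% of these reads in the KO-named table against 82.1% in the het-named one. The order of the levels was the same in both tables: Mir127, Mir411, Mir541, Mir434, Mir136, Mir410, Mir409, Mir431, Mir379 and Mir433. Neighbours in this order differed beyond their counting intervals, except Mir541 and Mir434 in the KO-named table, at 101 RPM each. Mir433 alone fell under 200 reads in the tables together, with 65, and is left out of the counts of ratios. These are counts of whole small RNAs, so no gene length enters, though ligation can favour some sequences over others.

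**Figure D1:**
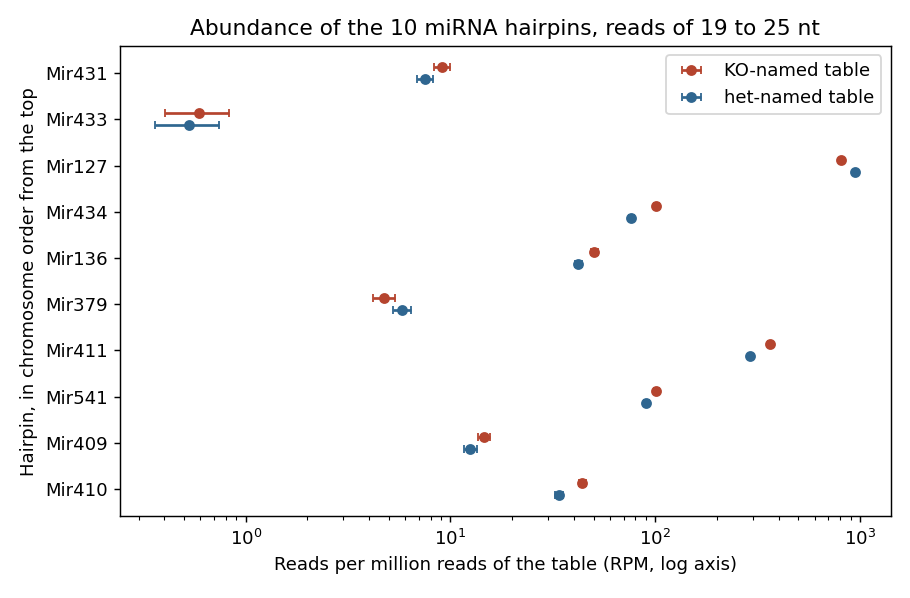
Level of each hairpin in RPM on a log axis, hairpins in chromosome order from the top, with 1 point per table and exact 95% intervals of the counts. Mir127 is highest at 804 RPM in the KO-named table against 943 RPM in the het-named one, and Mir433 lowest at 0.588 RPM (KO-named) and 0.526 RPM (het-named).

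Among the 5 miRNAs antisense to Rtl1, Mir127, whose miRNA is known to cleave the Rtl1 mRNA, was the most abundant and was lower in the KO-named table. It had 43741 reads (804 RPM) in the KO-named table against 59193 reads (943 RPM) in the het-named one, a log2 ratio of -0.23 (-0.25 to -0.21), and ranked 25 among the 1174 hairpins named Mir. Mir434 had 5499 KO-named reads (101 RPM) and 4800 het-named reads (76.5 RPM), a log2 ratio of 0.40 (0.35 to 0.46). Mir136 had 2747 KO-named reads (50.5 RPM) and 2646 het-named reads (42.2 RPM), a log2 ratio of 0.26 (0.18 to 0.34). Both were higher in the KO-named table, and neither pair of RPM intervals overlapped. Mir431 had 493 KO-named reads (9.07 RPM) and 474 het-named reads (7.55 RPM), a log2 ratio of 0.26 (0.08 to 0.45). Mir433 had 32 KO-named reads (0.588 RPM) and 33 het-named reads (0.526 RPM), and its interval of the ratio, 0.666 to 1.88, includes no difference. The 4 measured miRNAs opposite Rtl1 did not share a direction.

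On the Mirg side the level also differed widely between neighbours. The hairpins of Mir379 and Mir411 follow each other. Mir379 had 259 KO-named reads (4.76 RPM) and 364 het-named reads (5.80 RPM), whereas Mir411 had 19674 KO-named reads (362 RPM) and 18226 het-named reads (290 RPM). Mir379 was therefore lower in the KO-named table, with a log2 ratio of -0.28 (-0.52 to -0.05), and Mir411 higher, at 0.32 (0.29 to 0.35). Mir541 had 5512 KO-named reads (101 RPM) and 5684 het-named reads (90.5 RPM), a log2 ratio of 0.16 (0.11 to 0.22). Mir409 had 794 KO-named reads (14.6 RPM) and 786 het-named reads (12.5 RPM), a log2 ratio of 0.22 (0.08 to 0.37). Mir410, the one in a Mirg exon, had 2399 KO-named reads (44.1 RPM) and 2128 het-named reads (33.9 RPM), a log2 ratio of 0.38 (0.30 to 0.46). Summed, the 5 hairpins of this side had 527 RPM in the KO-named table against 433 RPM in the het-named one.

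Most of these ratios lay in the middle of those of all measured miRNAs. Of the 9 hairpins with at least 200 reads, 7 had a log2 ratio above 0 in RPM, where 80.7% of the 259 measured hairpins named Mir did, and the median of the 9 was 0.26 against 0.29 over the 259. The limit to names in Mir was set after seeing the data: with the other entries, 61.8% of 343 were above 0 and their median was 0.17, below that of the 9. With the median of all measured hairpins named Mir set to 0, 3 of the 9 were above 0, Mir434, Mir410 and Mir411. By construction this setting puts about as many of the measured hairpins above 0 as below. With scaling to the reads of all hairpins named Mir, 5 of the 9 were above 0, the same 3 and, within 0.01 of 0, Mir431 and Mir136. The share of all measured hairpins above 0 was not counted under that scaling. Mir541 and Mir409 were below 0 under both of these scalings. None of the 9 reached 1 in size, as 1.54% of the measured hairpins named Mir did, or 4.66% with the other entries. Mir127 and Mir379 stood at percentiles 6.95 and 4.63 of the measured hairpins, near the lower 5% point of -0.26. With tailed reads (described below) counted for every hairpin, a setting added after seeing the data, Mir127 had a log2 ratio of -0.04 (-0.05 to -0.02) at percentile 15.8 of 272 hairpins. Mir379 then had -0.11 (-0.31 to 0.09) at percentile 9.56, so its interval included 0. In exact reads the other 7 lay between percentiles 32.8 (Mir541) and 74.1 (Mir434). Without Mir127, the summed level was 688 RPM in the KO-named table against 560 RPM in the het-named one, a log2 ratio of 0.30, so the near equality of the sum over all 10 rests on Mir127.

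**Figure D2:**
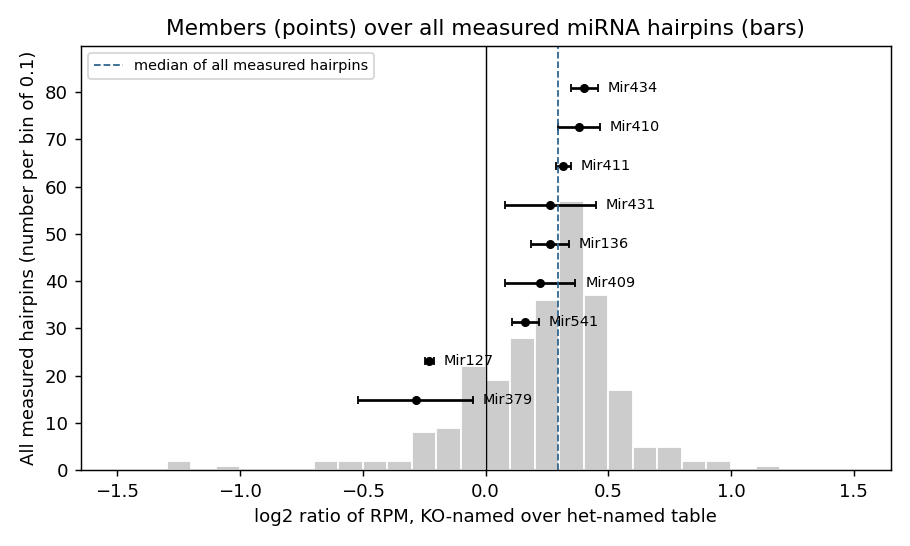
Log2 ratio of RPM, KO-named over het-named table, for the 9 measured members (points with 95% counting intervals) over the histogram of all 259 measured hairpins named Mir (bars, number per bin). Mir127 at -0.23 and Mir379 at -0.28 lie left of 0, and the other 7 lie around the median of all hairpins, 0.29.

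The hairpins differed in which strand was kept, and the leading strand was the same in both tables. The 3p strand led in 5 of the 9 measured hairpins. Mir127 gave 99.6% of its KO-named against 99.7% of its het-named reads from the 3p strand, and Mir410 99.9% (KO-named) and 100% (het-named). Mir409 gave 72.7% of its KO-named against 69.2% of its het-named reads from this strand. The 5p strand led in Mir411, with 99.6% of KO-named against 99.7% of het-named reads. It also led in Mir541, with 99.98% (KO-named) and 99.96% (het-named), and in Mir431, with 97.8% (KO-named) and 96.6% (het-named). Mir433 had 25 of its 32 reads on the 3p strand in the KO-named table against 27 of 33 in the het-named one.

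In Mir434, Mir136, Mir379 and Mir409 both strands were common, and the counting intervals of the tables were apart only in Mir434. Overlap of such intervals does not show equal shares, and the difference of the shares was not tested. The 3p share of Mir434 was 66.2% (65.0 to 67.5) in the KO-named table against 61.0% (59.6 to 62.4) in the het-named one, while that of Mir136 was 58.0% (56.1 to 59.8) of KO-named against 61.2% (59.3 to 63.0) of het-named reads. The share was higher in the KO-named table for Mir434 and lower for Mir136, where the intervals overlap. In Mir434 the 3p strand had a ratio of 1.44 (1.37 to 1.51), KO-named over het-named, and the 5p strand 1.15 (1.07 to 1.22). The 5p share of Mir379 was 64.1% (57.9 to 69.9) in the KO-named table against 73.9% (69.1 to 78.3) in the het-named one. Tailed 5p reads of Mir379, given below, are left out of these shares.

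**Figure D3:**
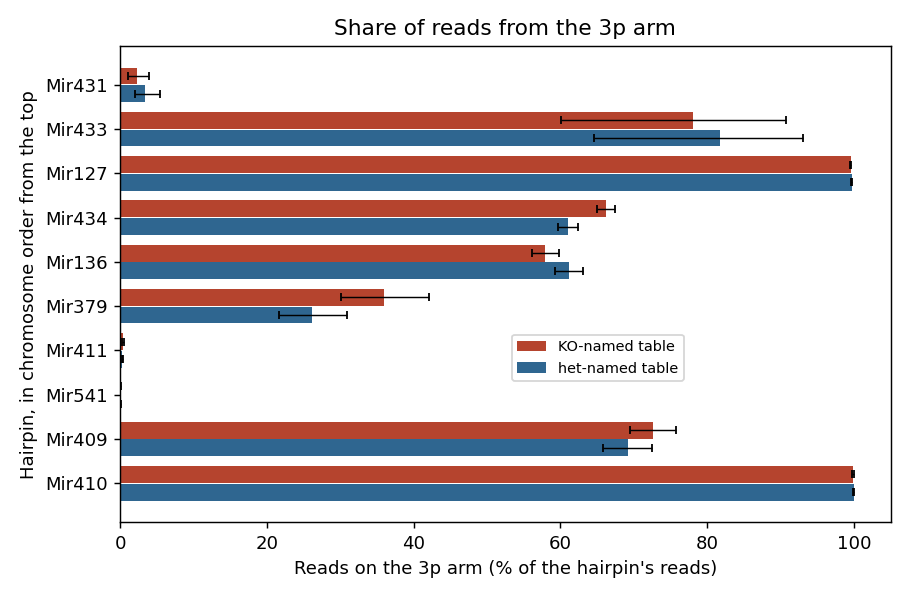
Share of each hairpin's reads that came from its 3p strand, in percent, with exact 95% intervals, hairpins in chromosome order from the top. Mir127 and Mir410 are almost wholly 3p in both tables, Mir431, Mir411 and Mir541 almost wholly 5p, and Mir434, Mir136, Mir379 and Mir409 are mixed.

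The start of the strand, which sets the seed, was sharp for most strands but not for all. Over 265 strands of all measured miRNAs, the main start held a median of 97.8% of the reads. The leading strands of Mir431, Mir127, Mir434, Mir379, Mir541 and Mir410 had at least 94.6% of their reads at the RefSeq start in each table. The following reads of the deposited tables, written with U and with bases 2 to 8 in capitals, show the common shifted starts.
miR-411-5p, 1 base upstream: aUAGUAGAccguauagcguacg
miR-136-3p, 1 base upstream: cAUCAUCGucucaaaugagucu
miR-434-5p, 1 base upstream: aGCUCGACucaugguuugaacc
miR-409-3p, 1 base upstream: cGAAUGUUgcucggugaaccccu
miR-409-3p, 1 base downstream: aAUGUUGCucggugaaccccu
miR-127-5p, 2 bases downstream: gAAGCUCAgagggcucugauu
The seeds of these 6 shifted forms occur in 0 mature miRNAs of the RefSeq table.

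Mir411 had the most reads of a shifted form. Its 5p strand started 1 base upstream in 32.6% (31.96 to 33.3) of KO-named against 31.0% (30.4 to 31.7) of het-named reads, and at the RefSeq start in 67.0% (KO-named) and 68.5% (het-named). The upstream form reached 118 RPM in the KO-named table against 89.8 RPM in the het-named one, more than the whole of Mir434 in each. For Mir136 the 3p strand began 1 base upstream of RefSeq in 91.6% (90.1 to 92.9) of KO-named against 87.3% (85.6 to 88.9) of het-named reads, and at the RefSeq start in 7.29% (KO-named) and 11.2% (het-named). The RefSeq form of miR-136-3p was thus the minor one in both tables. Its 5p strand kept the RefSeq start in 92.5% of KO-named against 91.9% of het-named reads, and began 3 bases upstream in 6.75% (KO-named) and 7.30% (het-named).

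Mir409 spread its 3p reads over 3 starts. The RefSeq start had 63.6% of KO-named against 62.5% of het-named reads, the start 1 base upstream 23.1% (KO-named) and 23.3% (het-named), and that 1 base downstream 13.3% (KO-named) and 14.2% (het-named). Its 5p reads all had a single start, 217 in the KO-named table against 242 in the het-named one. The 5p strand of Mir434 was shifted 1 base upstream in 22.2% of KO-named against 20.8% of het-named reads. The rare 5p strand of Mir127, with 180 KO-named and 162 het-named reads, had 48.9% (41.4 to 56.4) of the KO-named against 38.9% (31.3 to 46.9) of the het-named reads at the RefSeq start. At 2 bases downstream it had 45.6% (KO-named) and 54.9% (het-named). The counting intervals of the start shares of Mir409 and Mir434 overlapped between the tables. This does not show equal shares, and the differences were not tested.

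**Figure D4:**
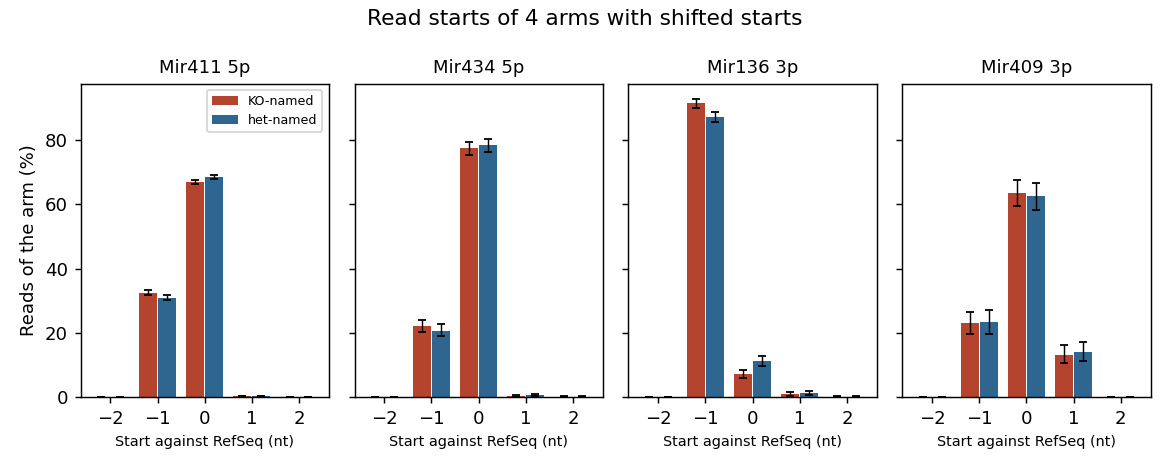
Share of reads by start position, in nt against the RefSeq start, for 4 strands with common starts 1 base away from it, with exact 95% intervals. Other strands with shifted starts, such as Mir136 5p, are not drawn. Mir411 5p and Mir434 5p have a second start 1 base upstream, Mir136 3p starts mainly 1 base upstream (91.6% KO-named, 87.3% het-named), and Mir409 3p has 3 starts.

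Lengths were tight in most leading strands and spread over several in Mir127, Mir434 and Mir541. At the main start, 21 nt made up 93.6% of KO-named against 92.9% of het-named Mir411 5p reads, and 93.4% of KO-named against 92.9% of het-named Mir410 3p reads. Mir136 3p was mostly 22 nt. Mir431 5p was 20 nt long in 86.1% of KO-named against 88.6% of het-named reads, 1 base shorter than its RefSeq sequence. Mir434 3p divided into 22 nt, at 50.3% of KO-named against 51.2% of het-named reads, and 21 nt, at 40.2% (KO-named) and 37.99% (het-named).

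Mir541 gave a ladder of lengths from a single start. Of its 5p reads of 18 to 32 nt at that start, 24.4% in the KO-named table against 26.2% in the het-named one were 21 nt. The 23 nt form had 19.2% (KO-named) and 19.4% (het-named), the 25 nt form, which is the RefSeq length, 21.8% (KO-named) and 20.8% (het-named), and the 26 nt form 10.6% (KO-named) and 10.2% (het-named). Longer reads were rare, and the 2 tables had nearly the same ladder. Mir541 was the member with most sense reads of 26 to 32 nt, 661 KO-named and 646 het-named. The next, Mir409, had 11 KO-named and 18 het-named such reads. The forms with most reads are these.
miR-541-5p, 21 nt: aAGGGAUUcugauguugguca
miR-541-5p, 25 nt: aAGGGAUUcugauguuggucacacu

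The 3p strand of Mir127 differed between the tables in its length. The forms share the start and seed and end 1 or 2 bases apart.
miR-127-3p, 22 nt: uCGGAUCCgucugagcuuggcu
miR-127-3p, 21 nt: uCGGAUCCgucugagcuuggc
miR-127-3p, 20 nt: uCGGAUCCgucugagcuugg
The 22 nt form had 543 RPM in the KO-named table against 460 RPM in the het-named one, a ratio of 1.18 (1.16 to 1.20). The 21 nt form had 141 RPM (KO-named) and 283 RPM (het-named), a ratio of 0.497 (0.483 to 0.510), and the 20 nt form 111 RPM (KO-named) and 189 RPM (het-named), a ratio of 0.586 (0.568 to 0.604). Only the 2 shorter of these forms were lower in the KO-named table. The mean length of the strand was 21.5 nt in the KO-named table against 21.3 nt in the het-named one, a difference of 0.254 nt that ranked 6 from the top of 265 strands, whose median difference was 0.0079 nt. Over the other hairpins named Mir, the log2 ratio was 0.04 for 19 nt, 0.14 for 20 nt, 0.22 for 21 nt and 0.34 for 22 nt, but 0.18 for 23 nt, 0.37 for 24 nt and -0.02 for 25 nt. The whole het-named table held more reads of 18 to 20 nt. The part of this in the Mir127 lengths was not tested.

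Reads of Mir127 with a 3′ tail of 1 to 3 bases, of which the first does not match the hairpin, are left out of the exact counts above. On the 3p strand such reads had 507 RPM in the KO-named table against 404 RPM in the het-named one. Their ratio was 1.26 (1.23 to 1.28). Exact and tailed 3p reads together had 1308 RPM (KO-named) and 1344 RPM (het-named), a ratio of 0.973 (0.963 to 0.983), or a log2 ratio of -0.04. For exact 3p reads alone the ratio was 0.852 (0.841 to 0.862), further from 1. The tailed share of the 3p strand was 38.7% (38.4 to 39.1) in the KO-named table against 30.0% (29.7 to 30.3) in the het-named one. For the tables together, the median over 265 strands was 9.47% and the 95% point 48.1%. By this level Mir127 3p, at 34.0%, ranked 31 from the top. The difference of 8.71 percentage points ranked 4 of 265. Tails of A alone made up 36.0% of KO-named against 38.3% of het-named tailed reads, U alone 28.9% (KO-named) and 27.8% (het-named), and both bases 29.8% (KO-named) and 28.4% (het-named). A U added to the 21 nt form cannot be told apart from the base 22 of the hairpin, which is also U. The tailed share of the rare 5p strand of Mir127 went the other way, on few reads. It was 12.2% in the KO-named table, 25 of 205 reads, and 19.8% in the het-named one, 40 of 202. The counting intervals of these shares overlap. The difference of -7.61 points ranked 262 from the top of the 265 strands.

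**Figure D5:**
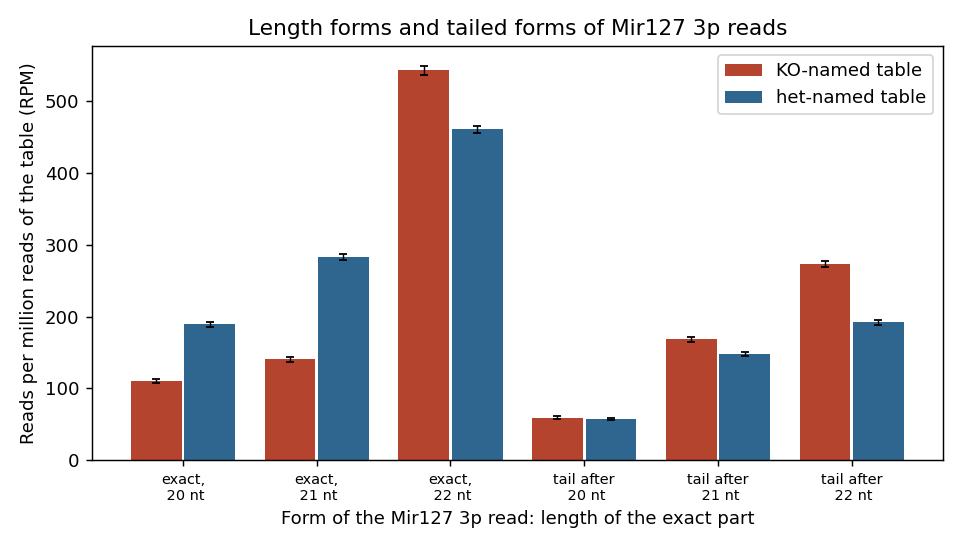
Level in RPM of the exact 20, 21 and 22 nt forms of the Mir127 3p strand and of tailed reads by the length of their exact part, with exact 95% intervals. The exact 20 and 21 nt forms are lower in the KO-named table (20 nt, 111 RPM KO-named against 189 RPM het-named; 21 nt, 141 RPM KO-named against 283 RPM het-named), and the exact 22 nt form and tails after 22 nt are higher.

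Tails were also common on Mir379 5p and rare on its neighbour. Mir379 5p was tailed in 38.1% (32.2 to 44.2) of KO-named reads, 102 of 268, and 24.6% (20.3 to 29.5) of het-named reads, 88 of 357. The difference of 13.4 points ranked 2 of 265 strands, on few reads. By level, at 30.4% for the tables together, Mir379 5p ranked 41 from the top. Exact Mir379 5p reads had a ratio of 0.712 (0.583 to 0.868) and exact and tailed reads together 0.867 (0.737 to 1.02), so with tails the interval includes no difference. The 3p strand of Mir379 had 93 KO-named and 95 het-named reads, a ratio of 1.13 (0.840 to 1.52). Mir411 5p, from the next hairpin, was tailed in 1.06% of KO-named against 1.14% of het-named reads, and Mir541 5p in 9.67% (KO-named) and 9.54% (het-named).

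Adenosine deaminases are known to edit miR-379-5p and miR-411-5p at base 5 in brain, and an edited A is read as G. Counting from 1 at the 5′ end of the miRNA, A5G was seen in 13 reads of miR-411-5p in the KO-named table, 0.0989% (0.0527 to 0.169), and 15 reads in the het-named table, 0.120% (0.0674 to 0.198). In the upstream form of miR-411-5p the same base is counted as A6G, with 13 KO-named reads (0.203%) and 4 het-named reads (0.0709%). In miR-379-5p A5G was seen in 0 reads beside 157 exact reads in the KO-named table against 260 in the het-named one, which by the same floor of 3 reads leaves shares of up to 1.91% (KO-named) and 1.15% (het-named), and by the exact interval 2.32% (KO-named) and 1.41% (het-named). The median A-to-G share was 0.0222% over 74 sites of the members and 0.0135% over 1859 sites of all measured forms, of which 95% lay under 0.239%. Among these 1859 sites, ranked by the share in both tables, A5G of miR-411-5p was at 254 from the top, at 0.109%, and A6G of the upstream form at 197, at 0.141%. Both were above the median site and under the 95% point. The 1859 sites include forms with far fewer reads, where each read weighs more. Within each form, over both tables, these sites had the highest A-to-G share. The next were A2G of miR-411-5p, at 0.0625%, and A1G of the upstream form, at 0.0913%. In the het-named table alone A1G of the upstream form, with 5 reads, was above A6G, with 4. Whether these substitutions are editing was not tested.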

How the data were processed

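The deposited tables give raw counts per distinct sequence, unscaled whole numbers by their values. Both are of testis small RNA of 15 to 40 nt, gel purified and prepared with the TruSeq Small RNA kit, per the labels' protocols. How reads were trimmed or aligned is not given in the sources used here. No column of another sample was present.

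Reads were matched exactly to the sense strand of the 2202 miRNA hairpins of GENCODE M21, and a read that matched several places was divided among them. No member's read matched a second hairpin. A read was 5p or 3p by the side of the hairpin its middle lay on. Log2 ratios put KO-named over het-named RPM, each count plus 0.5 reads, and plain ratios have none added. Hairpins needed 200 reads in the tables together. The hairpins compared with the members were those named Mir (259 of 1174), a restriction chosen after seeing the data. Tails were 1 to 3 bases after at least 18 exact ones, with the first base unmatched and later ones free to match. A substitution near the 3′ end can therefore be counted as a tail. Substitutions were counted in the first 18 bases. A strand entered the comparison of 265 strands by the same read minimum. Calculations were checked on simulated data. The tools were Python 3.11.15 with scipy 1.17.1, pandas 2.3.3, numpy 2.4.6 and, for plots, matplotlib 3.10.9.

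The members and lists were chosen with earlier results of these data known. All 10 members were named, and of the other miRNAs between Dlk1 and Dio3 the 5 with most reads and any past a log2 size of 1. Alternatives covered scaling, length window, counting, matching, minimum, added reads and arm rule.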

Additional observations from a re-analysis of the deposited data

How the results depend on the processing

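The limits are 1 library per table, tables not tied to a genotype, and no molecular identifiers. No paired analysis was possible because the labels give no replicate numbers and each table is 1 library. The summed log2 ratio of -0.01 became -0.27 when scaled to reads of all hairpins named Mir, -0.30 with the median of measured hairpins set to 0, and -0.094 when scaled to reads of 24 to 32 nt. It became 0.065 for reads of 21 to 23 nt, 0.12 for distinct sequences in place of reads, 0.071 with 1 mismatch or a tail allowed and, in alternatives chosen after seeing the data, 0.069 with a tail alone and 0.30 without Mir127. The median log2 ratio of 0.26 became 0.0030, -0.033 and 0.18 under the 3 scalings in that order, and 0.12 for distinct sequences. Members above 0 were 7, and 3 with the median set to 0, 5 when scaled to hairpins named Mir or for distinct sequences, 6 for reads of 21 to 23 nt or with a minimum of 1000, and 8 with a minimum of 50 or none. The share of all measured hairpins above 0 was not counted under these alternatives, though setting the median to 0 splits them evenly by construction. Members under the minimum were 1, and 2 for reads of 21 to 23 nt, 0 with a minimum of 50 and 3 with a minimum of 1000. The cause was not tested, beyond what each setting changes by construction. Hairpins led by the 3p strand were 5 throughout, and 6 with a minimum of 50 or none, which takes in Mir433. None was at or past 1 in size under any alternative run. Mir127 stayed below 0 under all of them, at -0.12 for reads of 21 to 23 nt and -0.04 with tails. Counting entries not named Mir, also chosen after seeing the data, gave 61.8% of measured hairpins above 0 in place of 80.7%.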

Other observations

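Most of the other 57 miRNA hairpins annotated between Dlk1 and Dio3 were scarce in these testes. Of the 57, 40 had reads and 8 reached 200. Together the 57 had 80.7 RPM in the KO-named table against 71.9 RPM in the het-named one. The 10 members, chosen with earlier results known, held 94.9% of the region's hairpin reads in the KO-named table against 95.4% in the het-named one, and Mir127 alone 51.1% (KO-named) and 59.9% (het-named). The 5 most abundant of the others began with Mir381, which had 1975 KO-named and 2009 het-named reads and a log2 ratio of 0.18. In each table Mir381 had more reads than the members Mir409, Mir431, Mir379 and Mir433. Mir300 followed with 595 KO-named and 645 het-named reads (0.09), then Mir337 with 180 KO-named and 184 het-named reads (0.18). Mir341 had 108 KO-named and 189 het-named reads (-0.60), and Mir369 had 137 KO-named and 140 het-named reads (0.18). None of the 8 measured reached 1 in size, and their median was 0.18.

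Outside the hairpins, the exons of Mirg, Rtl1, Meg3, Dlk1, Dio3 and Rian gave few sense reads that matched no other gene. Mirg, host of Mir541, Mir409 and Mir410, had 29 KO-named and 27 het-named sense reads that matched no other gene. The 5 member hairpins beside or inside it had 28638 KO-named and 27188 het-named reads. Sense reads of this kind on exons numbered 1 KO-named and 0 het-named for Rtl1, 8 KO-named and 3 het-named for Meg3, 14 in each table for Dlk1, and 17 KO-named and 14 het-named for Dio3. Rian, a noncoding RNA that hosts small nucleolar RNAs, had 429 KO-named and 409 het-named such reads, nearly all of 26 to 32 nt.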
